A study of Homo sapiens with 36 samples.

Results

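DNA replication and S-phase genes were followed in the transcriptomes of SW1783, an astrocytoma cell line, and HT29, a colorectal adenocarcinoma cell line. The group held 44 genes, found in the deposited table among 60675 genes. They were chosen by symbol for their function, with earlier results of these data known. The study asked whether a water extract of ACD (Aconitum carmichaeli Debeaux) acts differently on brain-derived and intestine-derived cells, and each line gave 18 of the 36 libraries. In batch B, cells received a vehicle or ACD at 500 µg/mL (high dose), 100 µg/mL (medium dose) or 20 µg/mL (low dose). In batch A, cells received a vehicle or 10 µM wortmannin, an inhibitor of phosphoinositide 3-kinases that served as positive control. Vehicle libraries were labelled as 0.1% DMSO, all libraries were taken at 24 h, and each of the 12 groups had 3 replicates (n = 3). The labels name no separate cultures, so p-values measure the spread between these libraries, which may be technical.

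Each line is an established tumor line, here the only model of its tissue. By the study's methods the lines were kept in different media, HT29 with and SW1783 without added carbon dioxide, and plated at different densities. A difference between the lines cannot be told apart from these culture conditions. SW1783 held vimentin (VIM) at a median of 4534 CPM (counts scaled to a common library total), SOX9 at 69.1 CPM and SLC1A3 at 32.1 CPM, while the defining astrocyte genes GFAP, AQP4, S100B, ALDH1L1 and SOX2 had medians of 0.0879 CPM or less. SOX9 was higher in HT29 (139.6 CPM), where ALDH1L1 had 7.23 CPM, so neither sets SW1783 apart, and these medians are over all libraries of a line. In HT29, all 8 epithelial markers were counted, from 1.22 CPM for CDX1 to 6579.2 CPM for KRT8. Total counts per library were 15941255 to 33866644, and the lowest count of a replication gene in any library was 28. Replicate 2 of the high dose in HT29 stood apart from replicates 1 and 3, with a chi-square statistic per degree of freedom of 70.8 and 71.5 against 10.1 between those replicates. To a lesser degree replicate 1 of the HT29 vehicles did too, with 15.1 and 17.3 against 4.04 in batch B and 14.8 and 17 against 3.78 in batch A. In HT29 the low dose reached 21.9, while the highest value within a SW1783 group was 3.77. For the high dose in HT29 against the vehicle, medians and counts by the adjusted p are given with and without replicate 2 of that dose. Values of that dose given once, such as the summed level and the counts of groups that do not overlap, include it unless stated. Vehicles of batch A and B with the same replicate number were closer to each other (1.46 to 1.64) than vehicles with different numbers (2.04 to 17.7), and the labels do not say whether they stem from the same cultures.

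Replication begins with origin licensing, in which ORC, CDC6 and CDT1 load the ring-shaped MCM2-7 helicase onto DNA in G1 phase. CDC45 and the GINS complex switch this helicase on at the start of S phase, the sliding clamp PCNA is loaded by replication factor C (RFC), and polymerases alpha, delta and epsilon copy the strands. Transcription of most of these genes is driven by E2F factors and is highest around the G1/S boundary. Mitosis genes peak later and are commonly controlled through a promoter element called the cell cycle homology region (CHR) together with CCAAT boxes bound by NF-Y.

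Promoter sequences were examined because the genes are known to share E2F control. RefSeq promoters (GRCh38.p14, 250 bases before to 50 bases after the first start listed) were found for 39 of the 44 genes. There was none for MCM4, MCM5, POLD3, RPA2 and RPA3. An E2F motif, searched on both strands as TTTCGCGC, TTTGGCGC, TTTCCCGC or TTTGCCGC, occurred in 21 of the 39 (53.8%) and in 3.33% of all 27305 promoters of the table. CCAAT occurred in 51.3% of the 39 and in 35.7% of all promoters. The CHR letters TTTGAA or TTCGAA occurred in 5.13% of the 39 and in 16.6% of all promoters. In a list of 25 mitosis and spindle genes, of which 21 had a promoter, the order was the opposite, with the CHR letters in 81%, CCAAT in 76.2% and an E2F motif in 14.3%. In the 39 promoters, 1 E2F match overlapped a CCAAT match. A match is a description of letters and not evidence of binding.

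The following stretches are the 150 bases before the start, printed for 5 genes chosen because they fell in SW1783 and carry an E2F motif there. Capitals mark the E2F motif, which reads as its reverse complement where it lies on the other strand. They lie at chr1:23531234-23531383 (minus strand) for E2F2, chr19:4909351-4909500 (plus) for UHRF1, chr18:657503-657652 (plus) for TYMS, chr20:5126623-5126772 (minus) for PCNA and chrX:24693768-24693917 (plus) for POLA1. The UHRF1 stretch lies inside the longer gene model of GENCODE v44.
E2F2: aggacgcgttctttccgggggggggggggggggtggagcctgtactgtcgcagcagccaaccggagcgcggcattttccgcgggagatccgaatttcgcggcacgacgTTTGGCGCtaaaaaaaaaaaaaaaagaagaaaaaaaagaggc
UHRF1: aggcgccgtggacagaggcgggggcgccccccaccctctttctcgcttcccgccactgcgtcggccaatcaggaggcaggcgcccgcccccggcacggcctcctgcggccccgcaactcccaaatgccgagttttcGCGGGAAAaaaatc
TYMS: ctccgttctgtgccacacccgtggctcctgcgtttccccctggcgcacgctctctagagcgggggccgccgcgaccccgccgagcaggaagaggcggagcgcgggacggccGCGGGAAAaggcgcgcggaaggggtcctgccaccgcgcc
PCNA: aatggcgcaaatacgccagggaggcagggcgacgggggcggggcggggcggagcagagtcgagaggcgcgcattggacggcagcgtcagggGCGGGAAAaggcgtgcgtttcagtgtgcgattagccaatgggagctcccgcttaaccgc
POLA1: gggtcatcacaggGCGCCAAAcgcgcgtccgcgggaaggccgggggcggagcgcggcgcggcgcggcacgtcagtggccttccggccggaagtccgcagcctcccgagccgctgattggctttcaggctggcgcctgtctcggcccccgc

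For contrast, the same stretch is printed for 3 mitosis genes, chosen after their values were seen because the motif lies there, in which capitals mark the CHR letters. They lie at chr16:23678739-23678888 for PLK1, chr15:59104996-59105145 for CCNB2 and chr1:43358831-43358980 for CDC20, all on the plus strand.
PLK1: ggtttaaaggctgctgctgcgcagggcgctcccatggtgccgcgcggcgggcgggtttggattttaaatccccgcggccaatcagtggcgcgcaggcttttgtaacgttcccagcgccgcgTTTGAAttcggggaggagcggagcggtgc
CCNB2: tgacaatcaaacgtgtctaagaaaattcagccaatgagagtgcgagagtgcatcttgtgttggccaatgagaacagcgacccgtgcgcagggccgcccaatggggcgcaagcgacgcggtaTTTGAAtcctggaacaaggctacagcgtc
CDC20: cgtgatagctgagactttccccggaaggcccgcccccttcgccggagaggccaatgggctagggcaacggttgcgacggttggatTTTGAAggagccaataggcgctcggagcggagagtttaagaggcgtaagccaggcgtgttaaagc

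In these sequences the E2F motif began 42 bases before the start in E2F2, 14 in UHRF1, 39 in TYMS, 59 in PCNA and 137 in POLA1. The CHR letters began 29 bases before the start in PLK1 and in CCNB2, and 65 in CDC20.

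Before treatment, the replication genes were expressed in both lines. Per kilobase of exon, PCNA had the highest level of the 44 genes in the vehicle of batch B, with 107 ± 3.37 CPM per kb in SW1783 and 165 ± 13.6 in HT29 (SD, n = 3). E2F2, an activating E2F factor, had the lowest level in both, with 1.32 ± 0.0538 CPM per kb in SW1783 and 1.61 ± 0.183 in HT29. The 44 genes together took 2970 ± 36.4 CPM in SW1783 and 4343.7 ± 36.4 CPM in HT29. Between the lines, 21 genes were lower in SW1783 with an adjusted p under 0.05 and a change of more than 1.5-fold, the thresholds of a differentially expressed gene (DEG), and 4 were higher. Of all genes tested, 25.6% were lower and 30.3% higher, so the lines differed widely. The median log2 difference was -0.50 for the replication genes and 0.05 for all genes. The helicase subunit MCM2 differed most (log2 difference -2.13 ± 0.06, SE), followed by the DNA ligase LIG1 (-1.84 ± 0.07). RFC4, POLA1, CHAF1B and BRCA1 were higher in SW1783, by 1.08, 0.97, 0.75 and 0.59 on the log2 scale.

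At the high dose of ACD in SW1783, the 44 listed replication genes fell as a group. Of the 44, 18 were downregulated DEGs and 0 were upregulated, where 9.57% of all genes tested were downregulated DEGs and 8.66% upregulated. Without the fold threshold, 38 fell, 1 rose (CDC6) and 5 did not pass (MCM5, RPA2, RPA3, DUT and SLBP), against 22.6% of all genes lower and 23.9% higher. The median log2 fold change was -0.54 (lowest -1.87, highest 0.33), and that of all genes was 0 (mean normalized count at least 10). In 40 genes all 3 treated libraries lay below all 3 vehicle libraries, and in 1 above, where this held for 34.4% and 35.6% of all genes. The summed level of the 44 genes was 1816.1 ± 3.95 CPM at the high dose. These are bulk samples, in which fewer cells in S phase and less RNA per cell cannot be told apart. The share of counts from the mitochondrial ribosomal RNAs differed between the groups too, from 0.932% ± 0.0249 in the vehicle to 3.15% ± 0.165, 7.83% ± 0.199 and 5.93% ± 0.153 at the low, medium and high dose, and its part in the result was not tested. Of the astrocyte markers, SLC1A3, a glutamate transporter, fell too, with 34.1 ± 1.02 CPM in the vehicle, 16.4 ± 0.74 at the medium dose and 5.77 ± 0.173 at the high dose (log2 fold change -0.94 ± 0.09 and -2.45 ± 0.11). At the high dose SOX9 fell (-0.25 ± 0.06) and VIM rose (0.29 ± 0.03). The other markers had medians of 0.0879 CPM or less, where GFAP and S100B did not pass and AQP4, ALDH1L1 and SOX2 had no adjusted p. The summed level of the 8 markers ranged from 4269.1 to 4662.6 CPM in the vehicle and from 4952.4 to 5034.8 CPM at the high dose. VIM made up most of this sum, with 4370 ± 194 CPM in the vehicle and 4930 ± 43.2 CPM at the high dose. The part of these markers in the result was not tested.

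**Figure D1:**
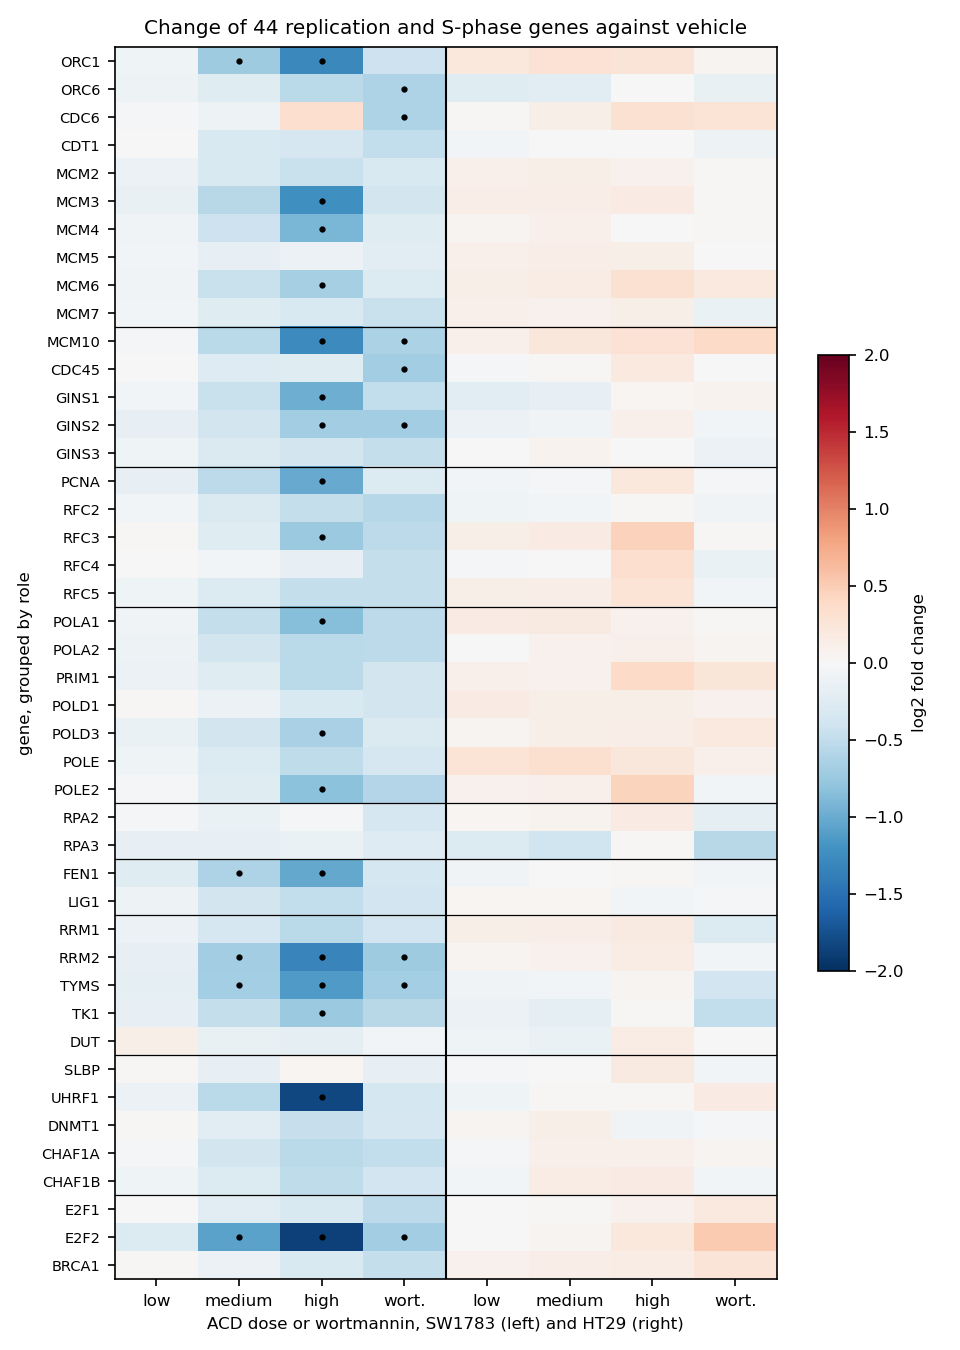
Heat map of the log2 fold change of the 44 genes against the vehicle of the same batch, in rows grouped by role, for the low, medium and high dose of ACD and wortmannin in SW1783 (left) and HT29 (right). Blue is lower, red is higher, and a dot marks a DEG. The SW1783 columns darken with the dose and hold 18 dots at the high dose, 5 at the medium dose and 8 with wortmannin, and the HT29 columns hold none.

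Among the licensing factors, ORC1, a subunit of the origin recognition complex, fell most. It had 334.1, 342.6 and 348.6 normalized counts in the vehicle and 159.8, 132.4 and 130.9 with the high dose. The groups did not overlap, and the log2 fold change was -1.29 ± 0.12 (SE, DESeq2 adjusted p = 4.15e-26). The 6 subunits of the MCM2-7 ring, which work in equal numbers as protein, gave values that ranged widely. MCM3 had 3136.6, 3095.3 and 3073.3 normalized counts in the vehicle and 1352.2, 1313.6 and 1321.6 at the high dose, a change of -1.22 ± 0.04. MCM4 changed by -0.91 ± 0.04, MCM6 by -0.67 ± 0.06, MCM2 by -0.44 ± 0.07 and MCM7 by -0.30 ± 0.04. MCM5 did not pass the test, at -0.12 ± 0.05. ORC6 and CDT1 fell less than 1.5-fold (-0.54 ± 0.08 and -0.34 ± 0.08).

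CDC6, the licensing factor that recruits CDT1 and the helicase to the origin complex, was the only gene of the 44 that rose by the adjusted p. Its normalized counts were 1897.8, 1747.8 and 1769.2 in the vehicle and 2362.8, 2193.8 and 2267.2 at the high dose. All treated libraries were higher, and the log2 fold change of 0.33 ± 0.05 passed the adjusted p (DESeq2, 1.5-fold not reached). At the medium dose it had 1771.2, 1657 and 1612.3, which overlapped with the vehicle and gave -0.10 ± 0.05.

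Helicase activation genes all fell at the high dose, by a median of -0.69. MCM10, which joins the helicase during activation, had 592.3, 598.4 and 596.3 normalized counts in the vehicle and 245.4, 228.8 and 261.9 at the high dose (-1.28 ± 0.09). The GINS subunits changed by -0.97 ± 0.08 (GINS1), -0.69 ± 0.10 (GINS2) and -0.36 ± 0.12 (GINS3). CDC45 changed by -0.25 ± 0.08.

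PCNA, the sliding clamp that tethers polymerases to DNA, had 3072.1, 2914.8 and 3117 normalized counts in the vehicle and 1514.2, 1541.5 and 1447.9 at the high dose (-1.01 ± 0.04). Of its loader, RFC3 changed by -0.74 ± 0.08 and RFC2, RFC4 and RFC5 by -0.47, -0.16 and -0.48. The RFC1 subunit, read among the further replication genes, rose (0.31 ± 0.04). All 7 polymerase and primase genes fell, 3 of them as DEGs. The catalytic subunit of polymerase alpha, POLA1, had 1404.9, 1321.2 and 1345.7 normalized counts in the vehicle and 774.5, 744.2 and 744.5 at the high dose (-0.85 ± 0.06). POLE2, a subunit of polymerase epsilon, changed by -0.82 ± 0.12 and POLD3, a subunit of polymerase delta, by -0.65 ± 0.07.

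FEN1, the nuclease that trims Okazaki fragments, had 1507.3, 1423.7 and 1489.3 normalized counts in the vehicle and 746.7, 764 and 657.5 at the high dose (-1.03 ± 0.07). LIG1, which seals the fragments, changed by -0.50 ± 0.09. Of the single-strand binding protein RPA, the subunits RPA2 and RPA3 did not pass the test. The RPA1 subunit, read among the further replication genes, fell (-0.34 ± 0.05). RPA2 had 1206.1, 1153.8 and 1117.7 normalized counts in the vehicle and 1149.6, 1144.2 and 1085.9 at the high dose (-0.04 ± 0.06), and the groups overlapped. RPA3 had 765.5, 735 and 804.5 against 732.8, 721.6 and 632.3, which did not overlap although the change of -0.14 ± 0.09 did not pass.

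Nucleotide supply held the gene with the smallest p-value of the 44. RRM2, the regulated subunit of ribonucleotide reductase, had 4628.6, 4426.1 and 4349.2 normalized counts in the vehicle and 1794.4, 1753.2 and 1830.4 at the high dose (-1.32 ± 0.04, DESeq2 adjusted p = 2.69e-257). Its constitutive partner RRM1 changed by -0.54 ± 0.04. Thymidylate synthase (TYMS) changed by -1.14 ± 0.06 and thymidine kinase (TK1) by -0.74 ± 0.07. DUT, which removes dUTP, gave -0.18 ± 0.10. DUT has 8 named pseudogenes, and PCNA, RRM2 and RPA2 have 3 each. Fewer are named for RPA3, TYMS, ORC1, RFC3, RFC5, FEN1 and BRCA1. A counting model may have divided reads between these genes and their pseudogenes.

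In the chromatin group, UHRF1, which guides the maintenance methyltransferase DNMT1 to newly copied DNA, had 1671.3, 1655 and 1717.2 normalized counts in the vehicle and 502.4, 462.2 and 465.8 at the high dose (-1.82 ± 0.06). DNMT1 itself changed by -0.46 ± 0.04, and the histone chaperone subunits CHAF1A and CHAF1B by -0.54 ± 0.07 and -0.51 ± 0.07. SLBP, which binds histone mRNA, had 1190.7, 1100.4 and 1080.3 normalized counts in the vehicle and 1043.1, 1213.6 and 1207.5 at the high dose, which overlapped (0.04 ± 0.07).

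E2F2 showed the largest fall of the 44 genes. It had 142.4, 152.4 and 143.6 normalized counts in the vehicle and 32.4, 36.9 and 49.6 at the high dose (-1.87 ± 0.21). E2F1, another activating E2F factor, had 922.2, 877.9 and 871.1 in the vehicle and 695.8, 745.1 and 711.8 at the high dose (-0.31 ± 0.07). The repair gene BRCA1 had 1600.6, 1513 and 1563.2 against 1268.8, 1240.6 and 1288, a change of -0.30 ± 0.05. Neither group pair overlapped. An E2F motif was found in 11 of 16 promoters of the downregulated DEGs and in 10 of 23 promoters of the other genes. RRM2, ORC1, MCM10, FEN1 and TK1 were the downregulated DEGs whose promoters held none.

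**Figure D2:**
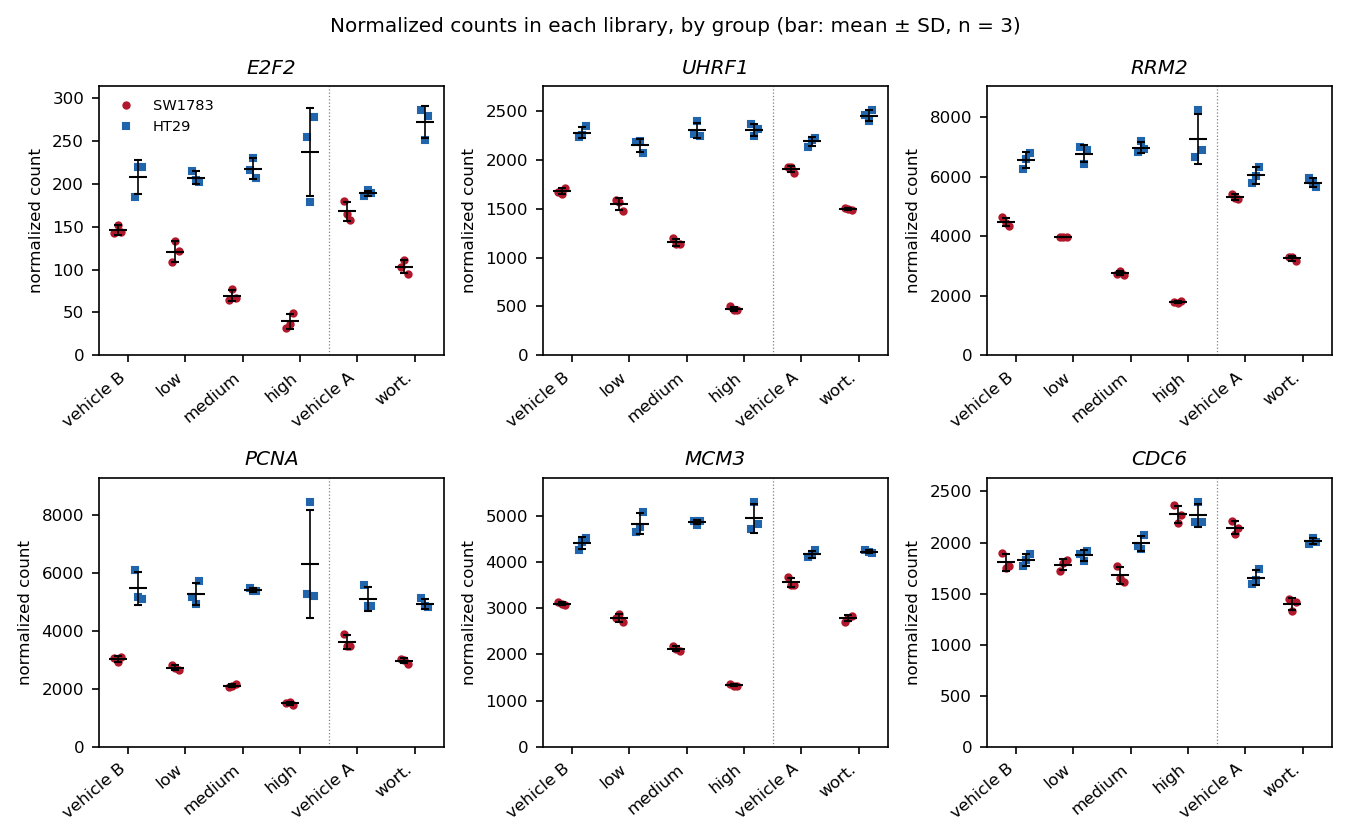
Normalized counts of 6 genes in every library (points) with mean ± SD (n = 3) for SW1783 (red circles) and HT29 (blue squares), in batch B (vehicle B and ACD doses, left of the dotted line) and batch A (vehicle A and wortmannin, right). Counts were scaled within a line and a batch, so heights compare only within these. In SW1783, E2F2, UHRF1, RRM2, PCNA and MCM3 step down to the high dose, and CDC6 ends above the vehicle at the high dose and below it with wortmannin.

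The fall was graded by dose. At the medium dose, 5 genes were downregulated DEGs (ORC1, FEN1, RRM2, TYMS and E2F2), where 1.48% of all genes were, and 35 passed the adjusted p, all lower, against 14.5% of all genes. The median log2 fold change was -0.30, and all 44 estimates were below 0. At the low dose 0 of the 44 were DEGs with DESeq2 or edgeR (0.0215% of all genes were downregulated DEGs). Without the fold threshold MCM3, PCNA, FEN1, RRM2 and TYMS fell there, by 0.15 to 0.24 on the log2 scale, where 1.24% of all genes did. An adjusted p was given for 40 of the 44, 9 had an unadjusted p under 0.05, all lower, and the median was -0.08. Group means stepped down from vehicle over low and medium to high in 32 of the 44 genes (72.7%), and in 19.2% of all genes.

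Between the high and the medium dose, a comparison without the vehicle, 30 genes were lower and 2 higher (CDC6 and SLBP), against 19.8% and 21.1% of all genes. MCM3, MCM10, RRM2, UHRF1 and E2F2 were downregulated DEGs, where 5.61% of all genes were. UHRF1 had 1197.4, 1139.8 and 1134.5 normalized counts at the medium dose. From vehicle to medium dose it changed by -0.54 ± 0.05 and from medium to high dose by -1.28 ± 0.06. For PCNA the steps were -0.52 ± 0.04 and -0.49 ± 0.05.

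In HT29 the same doses changed few of these genes. At the high dose DESeq2 and edgeR called no DEG among the 44 (1.63% of all genes were downregulated and 1.29% upregulated DEGs). Without the fold threshold 5 rose with DESeq2 (ORC1, CDC6, MCM10, RFC3 and PRIM1), against 4% of all genes, none fell, and 13 had an unadjusted p under 0.05, all higher. With edgeR, 3 of the 44 passed the adjusted p. The median was 0.13 and that of all genes 0.01, and in 40 genes the 95% interval of the change lay within 1.5-fold in both directions. In 13 genes all treated libraries lay above the vehicle and in none below, where each held for 11.1% of all genes. The summed level was 4273.7 ± 189.8 CPM. The mitochondrial ribosomal RNA share was 12% ± 0.611 at this dose and 1.18% ± 0.04 in the vehicle, and its part in these values was not tested.

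With all 3 replicates RFC3 had the highest estimate, with 1809.7, 1799.2 and 1867.3 normalized counts in the vehicle and 2155.7, 3125.1 and 2253.4 at the high dose (0.46 ± 0.13). POLE2 had 307.1, 315.3 and 292.6 against 342.7, 562.4 and 345.7 (0.44 ± 0.18), and PRIM1, a subunit of the primase, 430.3, 417.8 and 450.1 against 538.1, 613.7 and 539.1 (0.38 ± 0.10). In all of them replicate 2 was the highest library, and without it the estimates were 0.27 for RFC3, 0.17 for POLE2 and 0.32 for PRIM1. ORC1 had 656.6, 721.4 and 776.7 against 873.2, 793.2 and 912.4 (0.26 ± 0.09). MCM10 had 712.2, 791.7 and 806.5 against 1031.5, 813.8 and 975.1 (0.29 ± 0.10).

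CDC6 rose here too, with 1768.7, 1832.8 and 1887.5 normalized counts in the vehicle and 2204.8, 2396.8 and 2201.9 at the high dose (0.31 ± 0.06). PCNA had 6121.6, 5183.9 and 5120.9 against 5277.4, 8459 and 5214.6, in which replicate 2 alone exceeded the vehicle (0.21 ± 0.17).

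The lowest estimates lay near 0 and passed no test. LIG1 had 2356.5, 2410.8 and 2350.3 normalized counts in the vehicle and 2425.3, 2080.5 and 2315.4 at the high dose (-0.06 ± 0.07). CDT1 had 1372.9, 1164.8 and 1180 against 1249.8, 1037.7 and 1373.1 (-0.01 ± 0.11). ORC6 had 1023.4, 927 and 898 against 824.1, 1172.8 and 854.9 (0.00 ± 0.13). All of these groups overlapped, as they did in the next genes. MCM4 had 7706.3, 7468.9 and 7524.5 against 8050.9, 7320.4 and 7498.7 (0.01 ± 0.05), and GINS3 had 492.5, 459.5 and 440.5 against 460.6, 480.4 and 465.2 (0.01 ± 0.08). UHRF1 had 2236, 2257.2 and 2345 against 2366.4, 2243 and 2321.4 (0.02 ± 0.05). E2F2 had 185.3, 219.5 and 220.2 in the vehicle and 255.4, 179.5 and 277.8 at the high dose, where replicate 2 was the lowest library (0.21 ± 0.16). DNMT1 had 3546.7, 3662 and 3665.4 in the vehicle and 3966.5, 2576.3 and 3804.2 at the high dose (-0.07 ± 0.14), so that replicate 2 was again apart.

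Without replicate 2 the high dose of HT29 gave 8 genes higher (ORC1, CDC6, MCM10, RFC3, PRIM1, POLD1, POLE and BRCA1) and 2 lower (RPA3 and TYMS), against 9.89% of all genes higher and 7.61% lower. The median was 0.08 and that of all genes 0. DESeq2 again called 0 DEGs, for which the share of all genes was not counted in this fit. POLE (0.43) and MCM10 (0.37) then had the highest estimates. The estimate for PCNA was then -0.06 and that for DNMT1 0.10, and the range of the 44 estimates was -0.51 to 0.43. At the medium dose ORC1 alone passed the adjusted p (0.29 ± 0.09, against 1.15% of all genes higher), the median was 0.08 and 8 genes, all higher, had an unadjusted p under 0.05. At the low dose none passed, the median was 0.03 and 4 had an unadjusted p under 0.05, all higher. Neither DESeq2 nor edgeR called a DEG at either dose, where 0.426% and 0.145% of all genes were upregulated DEGs. Group means stepped up from the vehicle to the high dose in 12 of the 44 genes (27.3%) and in 9.75% of all genes, and without replicate 2 in 9 (20.5%) and in 13.2% of all genes.

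The difference between the lines, each in its own culture conditions, was tested as an interaction. It is signed as the change in SW1783 minus the change in HT29. At the high dose it passed both thresholds in 25 genes, all more negative in SW1783, where 7.77% of all genes did so, and 39 passed the adjusted p alone, against 15% of all genes. The median of the 44 differences was -0.74 and that of all genes -0.05. E2F2 (-2.12 ± 0.23), UHRF1 (-1.89 ± 0.07) and MCM10 (-1.62 ± 0.12) differed most. With replicate 2 of HT29 ACD high left out, 28 genes passed both thresholds, 39 passed the adjusted p and the median was -0.64. The median of all genes was then -0.02, and the shares of all genes in this direction were not counted. CDC6 did not differ beyond its error (-0.01 ± 0.07, 95% interval -0.15 to 0.12). RPA2, RPA3, DUT and SLBP also did not pass, and their intervals are wider. At the medium dose 10 genes passed both thresholds, where 1.54% of all genes did in this direction, with a median of -0.40. By the adjusted p alone 27 passed, against 6.18% of all genes. At the low dose 0 passed with DESeq2 or edgeR, MCM3 passed the adjusted p alone (-0.31 ± 0.06), and 11 had an unadjusted p under 0.05, all more negative (0.162% of all genes passed both thresholds in this direction).

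**Figure D3:**
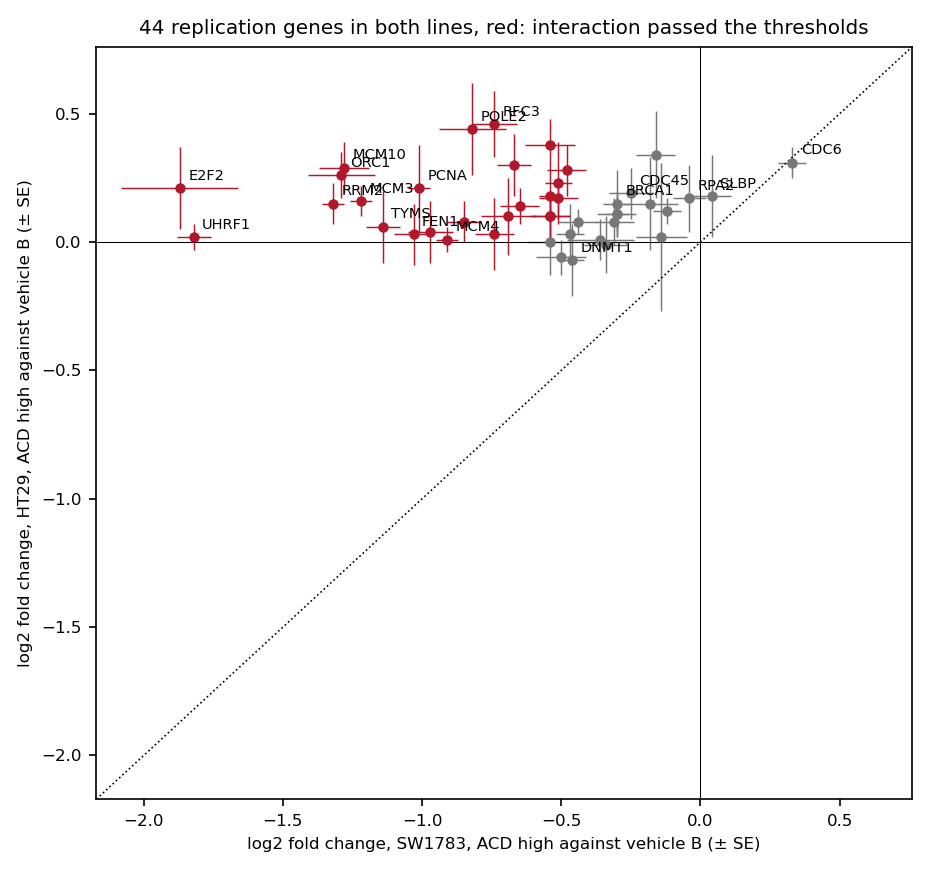
Log2 fold change at the high dose of ACD in SW1783 (x axis) against HT29 (y axis) for the 44 genes, each with SE bars, where the dotted line marks equal change. Red points are the 25 genes whose interaction passed both thresholds. The points spread from -1.87 to 0.33 along x and from -0.07 to 0.46 along y, and CDC6 lies on the line.

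Wortmannin lowered nearly all replication genes in SW1783, within a narrow range. The vehicle was that of batch A. A total of 43 of the 44 fell (all except DUT, -0.06 ± 0.08), against 20.1% of all genes, and 8 were downregulated DEGs (ORC6, CDC6, MCM10, CDC45, GINS2, RRM2, TYMS and E2F2), where 0.983% of all genes were. The median was -0.46 and the range -0.71 to -0.06. In 43 genes all treated libraries lay below the vehicle, where 27.4% of all genes did so. The summed level was 2973.8 ± 46.4 CPM in the vehicle and 2262.6 ± 17.1 CPM with wortmannin. The mitochondrial ribosomal RNA share was 0.954% ± 0.0387 and 1.02% ± 0.0153, so that it was nearly level here. RRM2 changed most, with 5429.5, 5283.2 and 5230.7 normalized counts in the vehicle and 3315.8, 3282.8 and 3155.4 with wortmannin (-0.71 ± 0.03). The MCM2-7 subunits lay within -0.45 and -0.22.

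Single genes differed between both treatments of SW1783. The change with ACD at the high dose minus the change with wortmannin was tested in a single fit of the 18 libraries, a comparison chosen after the values were seen. It passed both thresholds in 9 genes that fell more with ACD, where 11.5% of all genes did so, and in 1 gene that went the other way, where 9.02% did. The 10 genes are 22.7% of the 44, a share near the 20.6% of all genes that passed in either direction. The largest differences were those of UHRF1 (-1.48 ± 0.07), E2F2 (-1.17 ± 0.23), ORC1 (-0.88 ± 0.14), MCM3 (-0.87 ± 0.05) and PCNA (-0.74 ± 0.06), and FEN1, MCM4, MCM10 and RRM2 were the others. UHRF1 had 1929.2, 1922.8 and 1867.5 normalized counts in the vehicle of batch A and 1510.4, 1496.5 and 1492.3 with wortmannin (-0.35 ± 0.05).

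CDC6 was the gene with the opposite difference (0.95 ± 0.06). It had 2208.2, 2085.2 and 2140.6 normalized counts in the vehicle of batch A and 1442.5, 1329.8 and 1413.5 with wortmannin (-0.62 ± 0.05). CDC45 also fell more with wortmannin (-0.70 ± 0.09) than with ACD, and the difference of 0.45 ± 0.10 passed the adjusted p but not the fold threshold. The median of the 44 differences was -0.13 and that of all genes 0, with 19 genes more negative and 8 more positive by the adjusted p, against 22.9% and 25.2% of all genes. Between the vehicles of batch A and B, 0 of the 44 were DEGs in either line with DESeq2 or edgeR, and 0 had an unadjusted p under 0.05 (0.00348% of all genes were DEGs in SW1783 and 0% in HT29). With the replicate number as a block, which these vehicles share, the members' counts were also 0, and if the vehicles stem from the same cultures this comparison cannot show a batch difference.

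**Figure D4:**
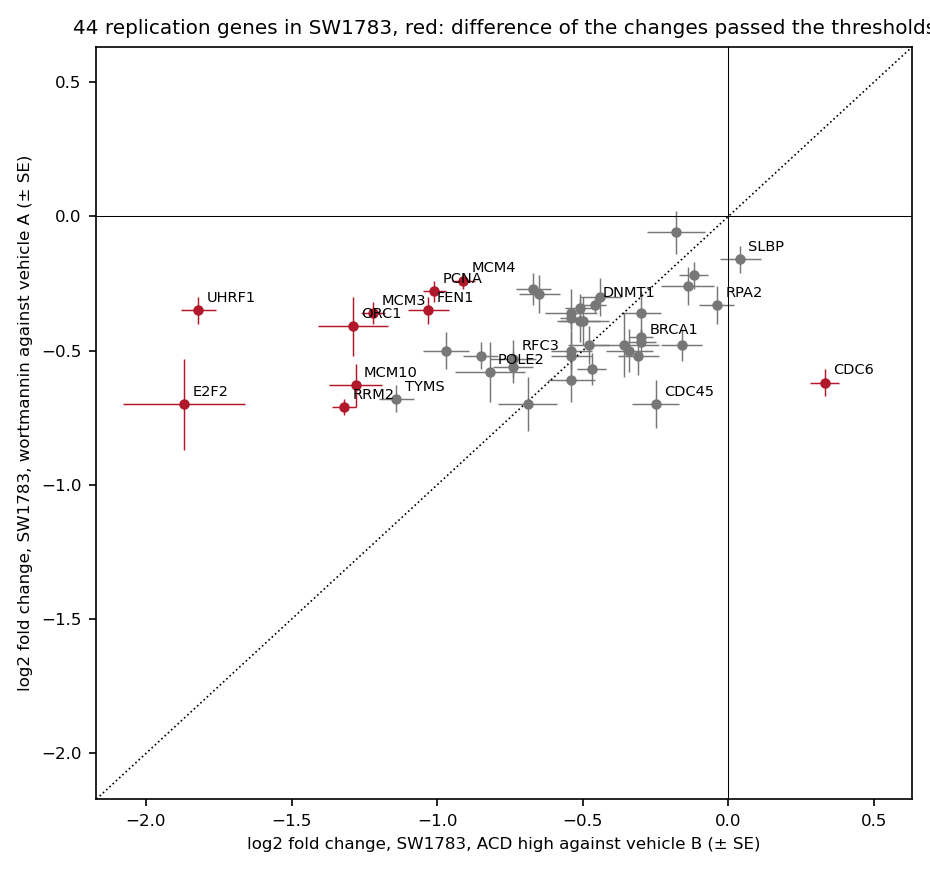
Log2 fold change in SW1783 with the high dose of ACD (x axis) against that with wortmannin (y axis) for the 44 genes, each against the vehicle of its own batch with SE bars, where the dotted line marks equal change. Red points are the 10 genes whose difference passed both thresholds. The y values stay between -0.71 and -0.06 while the x values run from -1.87 to 0.33.

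In HT29 wortmannin left the group as a whole level. No gene was a DEG with DESeq2 or edgeR (0.731% of all genes were downregulated and 1.92% upregulated DEGs), 4 fell (RPA3, RRM1, TYMS and TK1) and 7 rose (CDC6, MCM6, MCM10, POLD3, UHRF1, E2F2 and BRCA1), against 11.1% and 7.63% of all genes, and 15 had an unadjusted p under 0.05 (6 lower and 9 higher). With edgeR, 12 passed the adjusted p. The median was -0.01. RPA3 had 995.5, 715.6 and 636.1 normalized counts in the vehicle and 528.2, 577.4 and 490.2 with wortmannin (-0.55 ± 0.15), and the vehicle libraries varied more than the treated ones. E2F2 had 186.6, 192.6 and 189.1 against 286, 251.5 and 280.1 (0.52 ± 0.13). Of the 5 nucleotide supply genes, RRM1 (-0.27 ± 0.06), TYMS (-0.38 ± 0.06) and TK1 (-0.49 ± 0.07) fell, while RRM2 (-0.06 ± 0.06) and DUT (0.01 ± 0.08) did not pass.

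Compared between the lines, the wortmannin change was more negative in SW1783 in 11 genes past both thresholds, where 2.48% of all genes were, and 38 passed the adjusted p, against 9.53% of all genes. The median difference was -0.47. E2F2 (-1.25 ± 0.18), MCM10 (-1.02 ± 0.10) and CDC6 (-0.92 ± 0.07) led, and all 3 genes of the E2F and BRCA1 group passed, with -0.74 for E2F1 and for BRCA1. TK1 (-0.10 ± 0.08) and RRM1 (-0.13 ± 0.06) did not pass.

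A list of mitosis and spindle genes was read beside the replication genes. With ACD at the high dose in SW1783, all 25 mitosis genes fell, 21 as DEGs, against 22.6% and 9.57% of all genes. Their median was -0.79. KIF20A, a mitotic kinesin, changed by -1.62 ± 0.05, ASPM, a spindle pole protein, by -1.49 ± 0.05 and MKI67, a proliferation marker, by -1.43 ± 0.04. In HT29 the median was 0.05 with 1 of the 25 higher, where 4% of all genes were. Without replicate 2 the median was 0.04 with 1 higher and 1 lower, against 9.89% and 7.61% of all genes. With wortmannin all 25 fell in both lines, where 20.1% (SW1783) and 11.1% (HT29) of all genes did. The medians were -0.38 in SW1783 and -0.53 in HT29. Of the 25, 1 and 9 were DEGs, against 0.983% and 0.731% of all genes lower. PLK1 and CCNB2, whose promoters are shown above, changed in HT29 by -0.86 ± 0.06 and -0.83 ± 0.06. CDC20, the third, changed by -0.84 ± 0.06 there and by -0.65 ± 0.03 in SW1783. The wortmannin interaction of the mitosis genes had a median of 0.08. By the adjusted p 10 were more positive and 1 more negative in SW1783, against 5.33% and 9.53% of all genes. For ACD at the high dose their interaction had a median of -0.95. All 25 were more negative in SW1783 past both thresholds there, where 7.77% of all genes were. In HT29 with wortmannin the mitosis genes were lower while the replication genes had a median near 0. Whether the lists differ from each other was not tested, since their genes are not independent.

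**Figure D5:**
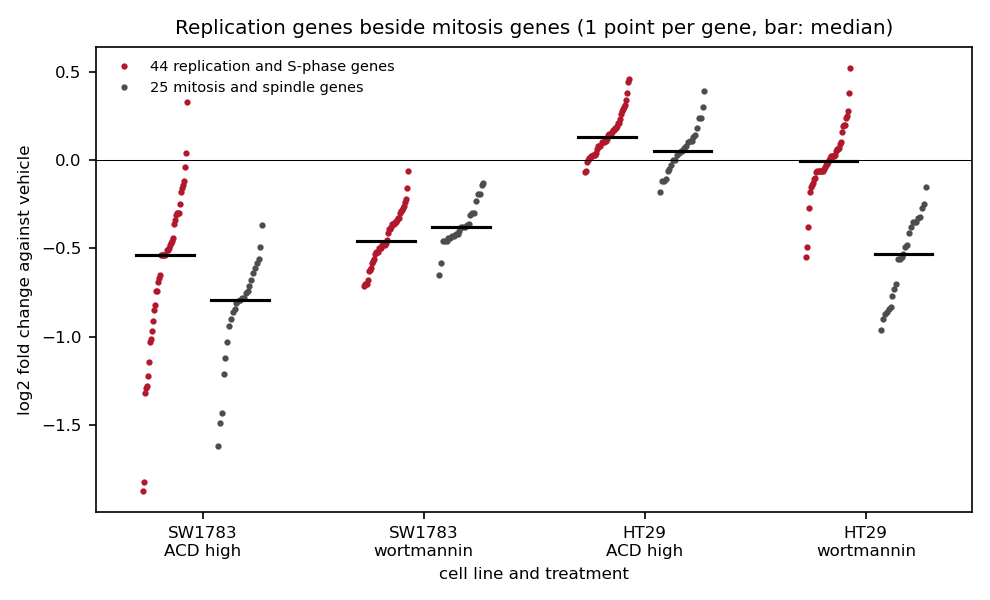
Log2 fold change against vehicle of the 44 replication genes (red points) and of 25 mitosis genes (grey points) for ACD at the high dose and wortmannin in both lines, with 1 point per gene, ordered by value, and a bar at the median. Medians of replication and mitosis genes are -0.54 and -0.79, -0.46 and -0.38, 0.13 and 0.05, and -0.01 and -0.53 from left to right.

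Other genes of the pathway moved in both directions in SW1783 at the high dose. There 22.6% of all genes fell and 23.9% rose by the adjusted p, and 9.57% were downregulated and 8.66% upregulated DEGs. Of 37 further replication genes, 22 fell (8 as DEGs) and 3 rose, with a median of -0.22. The 3 that rose were ORC3 (0.39 ± 0.06), RFC1 (0.31 ± 0.04) and CHTF18 (0.44 ± 0.10). TICRR, needed to fire origins, changed by -1.08 ± 0.10, the histone chaperone ASF1B by -1.07 ± 0.07 and the checkpoint mediator CLSPN by -1.04 ± 0.07. Of 12 further nucleotide synthesis genes, 6 fell and 3 rose, and the share that rose was near that of all genes. SHMT1, an enzyme of serine and glycine metabolism, changed by -0.62 ± 0.08. In the list of 20 S-phase cyclin and E2F network genes, 8 were downregulated DEGs and 2 were upregulated. Cyclin E2 (CCNE2) changed by -1.65 ± 0.10 and the atypical repressor E2F8 by -1.47 ± 0.17, while E2F7, the other atypical repressor, changed by 1.81 ± 0.03. Of 14 genes of replication-coupled repair, 10 fell, among them BRIP1 (-1.22 ± 0.07), XRCC2 (-0.91 ± 0.08) and EXO1 (-0.77 ± 0.11). In HT29 at the high dose the medians of these lists were 0.14, 0.16, 0.09 and 0.24. Of their genes 2, 3, 1 and 4 rose, all less than 1.5-fold, where 4% of all genes rose. Without replicate 2 the medians were 0.06, 0.07, 0.11 and 0.21, and 5, 4, 2 and 7 rose, where 9.89% of all genes did.

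A list of 10 genes known as targets of p53 was read beside them, since p53 is known to lower cell cycle genes through CDKN1A. In SW1783 at the high dose 4 were upregulated and 2 downregulated DEGs, against 8.66% and 9.57% of all genes. SESN2 (2.74 ± 0.07), GADD45A (2.39 ± 0.06) and BBC3 (3.55 ± 0.42) rose most, genes that stress factors other than p53 are also known to induce, and the cyclin-dependent kinase inhibitor CDKN1A rose by 1.44 ± 0.07. ZMAT3 (-0.71 ± 0.05) and TP53I3 (-0.62 ± 0.11) fell. With wortmannin in SW1783, 2 fell and 2 rose, all less than 1.5-fold, where 20.1% of all genes fell and 13.8% rose. In HT29 at the high dose SESN2 (1.12 ± 0.14) and CDKN1A (0.59 ± 0.11) rose and BTG2 (-1.01 ± 0.09) and SESN1 (-0.73 ± 0.12) fell, and all 4 were DEGs without replicate 2 too. With all replicates, 1.29% of all genes were upregulated and 1.63% downregulated DEGs there.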

How the data were processed

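RNA-seq gave 36 libraries. The deposited values are expected counts per gene, which the authors made with RSEM, and 8.84% of them were not whole. The submitters' processing notes name FastQC 0.11.9, Trim Galore 0.6.5, STAR 2.7.3a and RSEM 1.3.3. RSEM divides reads that match several genes by a model, so genes with pseudogenes are uncertain. The libraries were made with a directional (stranded) kit, and the strand option of RSEM is not given in the sources used here. Counts were rounded and tested with DESeq2 1.42.0 (R 4.3.3, Wald test, Benjamini-Hochberg adjustment over all genes tested). A DEG had an adjusted p under 0.05 and a change over 1.5-fold (0.585 on the log2 scale). The 12 batch B libraries or 6 batch A libraries of a line were fitted together, interactions used 24 (ACD) or 12 (wortmannin) libraries, and normalized counts are on the scale of each fit. Alternatives were edgeR 4.0.16 (quasi-likelihood), TMM size factors, a low-count filter (10 counts in 3 libraries), no fold threshold, fewer or more libraries, a replicate block and leaving out each replicate. Shares of all genes were not counted for unadjusted p-values or for edgeR, so those counts have no background beside them.

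The 44 genes and the other lists were chosen with earlier results of these data known. Library values were given in each line for the 6 genes with the largest fall and the 3 with the largest rise at the high dose, the largest interactions, the largest wortmannin change, the leading gene of each role, BRCA1, E2F1 and PCNA. The 3 DEGs with the largest change were named in the other lists, except for a gene that is not reported here. Library values of CDC6 and UHRF1 at further doses were added after their values were seen. So were PLK1, CCNB2, CDC20, CDKN1A, ZMAT3, TP53I3, RPA1, RFC1, ORC3 and CHTF18. On simulated counts, DESeq2 called 89.6% of genes changed 2-fold in the SW1783 high dose comparison (30808 genes) and 94% in that of HT29 (29696 genes), and of genes changed 1.5-fold 46.3% and 34.3%. The simulation used the same assumed rule for the spread in both lines and held no outlying library. It therefore cannot compare the sensitivity of the lines. Same-numbered libraries of treatment and vehicle did not deviate together in every pair, so the numbers were not used as pairs. Vehicles of both batches with the same number did (correlations 0.19 to 0.74).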

Additional observations from a re-analysis of the deposited data

Results flagged for a closer look

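The results below are differences between the lines under the same treatment, tested as interactions in DESeq2 and given as log2 change in SW1783 minus log2 change in HT29. They cannot be told apart from the culture conditions, which differed between the lines. Groups of 3 allow only a limited check of single outlying libraries. The high-dose values below include replicate 2 of HT29 ACD high, which stood apart. Without it 28 genes passed both thresholds at that dose, and the median of the 44 differences was -0.64. The median of all genes was then -0.02, and the share of all genes that passed in this direction was not counted. All of the differences listed below were negative.

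For the high dose of ACD, the licensing genes were ORC1 (-1.60), MCM3 (-1.43), MCM4 (-0.96) and MCM6 (-1). Helicase activation genes were MCM10 (-1.62), GINS1 (-1.05) and GINS2 (-0.83). The clamp and its loader gave PCNA (-1.26), RFC3 (-1.23) and RFC5 (-0.80). Polymerase and primase genes were POLA1 (-0.97), POLA2 (-0.68), PRIM1 (-0.95), POLD3 (-0.84), POLE (-0.79) and POLE2 (-1.29). FEN1 (-1.10), RRM1 (-0.76), RRM2 (-1.51), TYMS (-1.24) and TK1 (-0.81) served Okazaki fragments and nucleotide supply. UHRF1 (-1.89), CHAF1A (-0.69), CHAF1B (-0.72) and E2F2 (-2.12) completed the 25.

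At the medium dose the 10 genes were ORC1 (-1.02), MCM3 (-0.71), MCM6 (-0.61), MCM10 (-0.78), POLA1 (-0.67), POLE (-0.62), FEN1 (-0.63), RRM2 (-0.81), TYMS (-0.64) and E2F2 (-1.15).

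For wortmannin the 11 genes were CDC6 (-0.92), MCM10 (-1.02), CDC45 (-0.71), GINS1 (-0.60), GINS2 (-0.67), POLA2 (-0.59), PRIM1 (-0.63), RRM2 (-0.67), E2F1 (-0.74), E2F2 (-1.25) and BRCA1 (-0.74).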

How the results depend on the processing

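Without the fold threshold the counts were 39 (SW1783 high), 35 (medium), 5 (low), 32 (high against medium) and 43 (wortmannin), 5, 1 and 11 in HT29 (high, medium, wortmannin), and 39, 27, 1 and 38 for the interactions (high, medium, low, wortmannin). Under every other alternative the DEG counts stayed within 1.5 times, except for HT29 wortmannin, which ranged from 0 to 1 when a replicate was left out. That DEG was RPA3, at -0.61 without vehicle A replicate 2, -0.68 without vehicle A replicate 3 and -0.62 without wortmannin replicate 2. The median moved to -0.09 for the low-dose interaction with TMM size factors, to -0.43 for the wortmannin interaction and to -0.53 for the vehicles of the lines with edgeR or TMM, and the cause was not tested. Leaving out 1 replicate gave medians of -0.47 to -0.43 (SW1783 wortmannin), 0.07 to 0.09 and 0.01 to 0.04 (HT29 medium and low), -0.76 to -0.64, -0.42 to -0.38 and -0.14 to -0.09 (high, medium and low interactions) and -0.52 to -0.45 (vehicles of the lines). In HT29 at the high dose, where estimates near 0 do not hold a direction, ORC6 was 0.00 with only the groups compared, and leaving out 1 replicate gave signs of both kinds for DNMT1 (-0.18 to 0.10), CDT1 (-0.11 to 0.09), ORC6 (-0.17 to 0.09), MCM4 (-0.03 to 0.04), GINS3 (-0.02 to 0.05) and PCNA (-0.06 to 0.33).

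With a replicate block the DEG counts were 18, 5, 0, 5 and 8 in SW1783 (high, medium, low, high against medium, wortmannin), 0 in HT29, and 25, 10, 0 and 10 for the interactions, so that no count moved by over 1.5 times. The difference between ACD and wortmannin, chosen after seeing the data, gave 10 DEGs under each alternative. The median SE of the genes was 0.07 in SW1783 and 0.10 in HT29 at the high dose, which limits the size of change that can be seen.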
